A study of Mus musculus with 8 samples.

Results

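The 45 genes described are a list of DNA replication genes: the licensing factors and helicase that open origins, the polymerases, clamp and clamp loader that copy DNA, the enzymes that join Okazaki fragments and supply nucleotides, the factors that copy chromatin and DNA methylation, and regulators of S phase entry. Members were chosen by name, as the non-control array probes whose gene name equals a listed symbol, a rule that uses names alone. The list of symbols itself was chosen with earlier results of these data known. All 45 were found, on 59 probes, and all 45 passed the filter on dim probes, among 26508 genes that passed it.

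The levels of these genes were read from 1-colour Agilent arrays, on which Cy3-labelled RNA from cultures of mouse bone marrow binds to spots of short DNA, and a scanner reads how bright every spot is. There were 4 groups of 2 arrays. Colony cells came from bone marrow kept for 7 days on an endothelial monolayer in a medium for haematopoietic stem cells. The IL-4 and LPS groups were bone marrow-derived macrophages, grown on dishes with M-CSF for 7 days and then given interleukin-4 or lipopolysaccharide for 24 hours, and the control group was the same kind of macrophage in control media. All groups carried the DsRed transgene Tg(CAG-DsRed*MST)1Nagy on a B6.Cg background, whose CAG promoter is active in most cell types. The labels used here state no age, sex or dose, and not whether duplicates came from different animals or dishes, so that p-values measure only the spread between these samples. By the labels, colony cells and macrophages differ at the same time in substrate and in medium, and on the arrays they also differed in cell type markers and in sex-linked genes, given below.

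DNA is copied once per cell cycle. In G1, Cdc6 and Cdt1 load the Mcm2-7 ring on origins, and in S phase Mcm10 and the GINS complex help turn it into an active helicase. DNA polymerase alpha with primase starts each strand, polymerases epsilon and delta extend it on the clamp PCNA, and E2F factors, released when cyclin-dependent kinases inactivate RB, switch on transcription of many of these genes. Macrophages in culture divide in response to M-CSF, and LPS is known to stop that division.

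The share of spots well above background ran from 62.4% to 67.5% over 7 arrays, LPS replicate 2 reached 72.2%, no spot was saturated, and the arrays of a group correlated across genes at Pearson r from 0.986 to 0.997. Signals of a gene are given below as multiples of the array's 75th percentile, a scale that allows 1 gene to be compared between arrays, but not different genes. The 8 arrays shared 1 slide and 1 scan, with IL-4 and control arrays in 1 row of the slide and colony cell and LPS arrays in the other, so that slide row and group cannot be told apart except in IL-4 against control and colony cells against LPS. Of the markers, 12 pan-leukocyte genes summed to 128 to 129 in colony cells, against 802 to 825 in IL-4, 1570 to 1770 in LPS and 754 to 763 in control macrophages. Macrophage markers (10 genes) summed to 171 to 175 in colony cells, 1540 to 1590 in IL-4, 1800 to 2080 in LPS and 2140 on each control array. Mesothelial and fibroblast markers (14 genes, all well above background in colony cells) summed to 603 to 624 in colony cells, against 0.403 to 0.422 in IL-4, 1.66 to 1.94 in LPS and 0.585 to 0.727 in control macrophages. Endothelial markers (8 of 12 passed the filter) summed to 21.2 to 21.4 in colony cells, 18.9 to 20.2 in IL-4, 19.7 to 20.7 in LPS and 19.9 to 22.3 in control macrophages. Of those 8, 4 were called higher and 3 lower in colony cells against control. Esam was at least 456-fold and Tek at least 4.07-fold higher in colony cells, with Tek, Esam and Robo4 not well above background in IL-4 and control, whereas Cdh5 was not well above background in colony cells and at least 5.01-fold lower there than in control. Y chromosome genes (4 genes) summed to 1.24 to 1.31 in colony cells, against 8.96 to 9.20, 8.23 to 8.58 and 8.66 to 9.72 in IL-4, LPS and control macrophages, and Xist stood at least 116-fold above control in colony cells. The colony cell arrays thus held mesothelial and fibroblast markers at a high level and leukocyte markers at a low one, and are called colony cells only as the labels name them. The part of this difference in cell make-up, and of that in Y chromosome genes and Xist, in the results that follow was not tested.

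**Figure D1:**
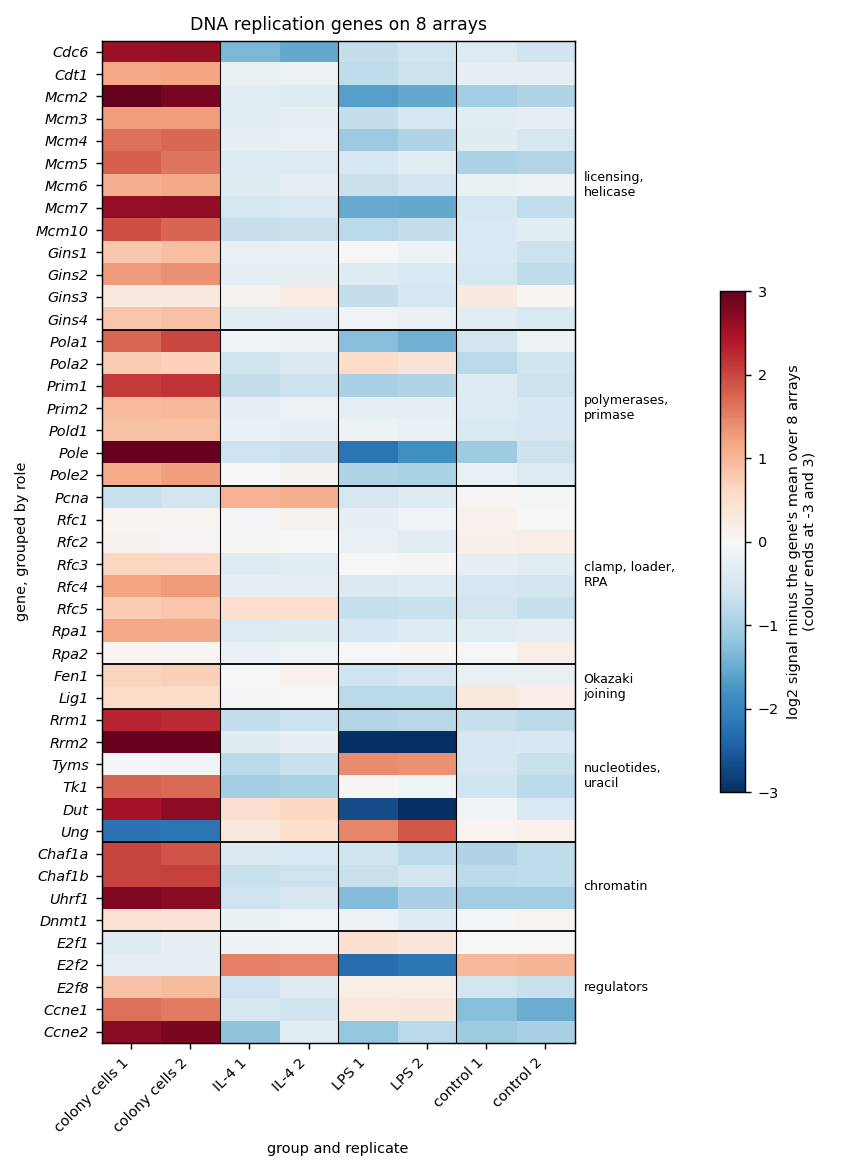
Heat map of the 45 DNA replication genes (rows, grouped by role) on the 8 arrays (columns), as log2 signal minus the gene's mean over 8 arrays. Colony cells had the highest mean for 37 genes and LPS macrophages the lowest for 24, and Pcna, Ung, E2f1 and E2f2 were among the exceptions.

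Most DNA replication genes were higher in colony cells than in any macrophage group. Against control macrophages, 37 of 45 were called higher and 4 lower, where 24.7% of all 26508 genes were called higher and 46.6% lower. Their median log2 fold change was 1.51, against -0.35 over all genes, and 32 were higher by at least 2-fold. Calls rest on limma, with p-values adjusted by Benjamini-Hochberg over all genes and a threshold of 0.05. In bulk RNA, fewer cells of a type and less RNA per cell cannot be told apart.

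Against IL-4 macrophages 37 were called higher and 3 lower in colony cells (all genes, 24.2% higher and 47.4% lower), and the members' median was 1.42. Against LPS macrophages 38 were called higher and 3 lower (all genes, 26.6% and 49.8%), with a median of 1.73. That last comparison lay within 1 slide row. These 3 comparisons share the colony cell arrays. Of the 45 genes, 35 were higher in colony cells than in all 3 macrophage groups, which held for 17.4% of all genes, and 1 (Ung) was lower than in all 3, which held for 34.7%. Ccne2 entered the tests only through its colony cell signal, and is among those 35 and among the genes called higher in each of these 3 comparisons.

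**Figure D2:**
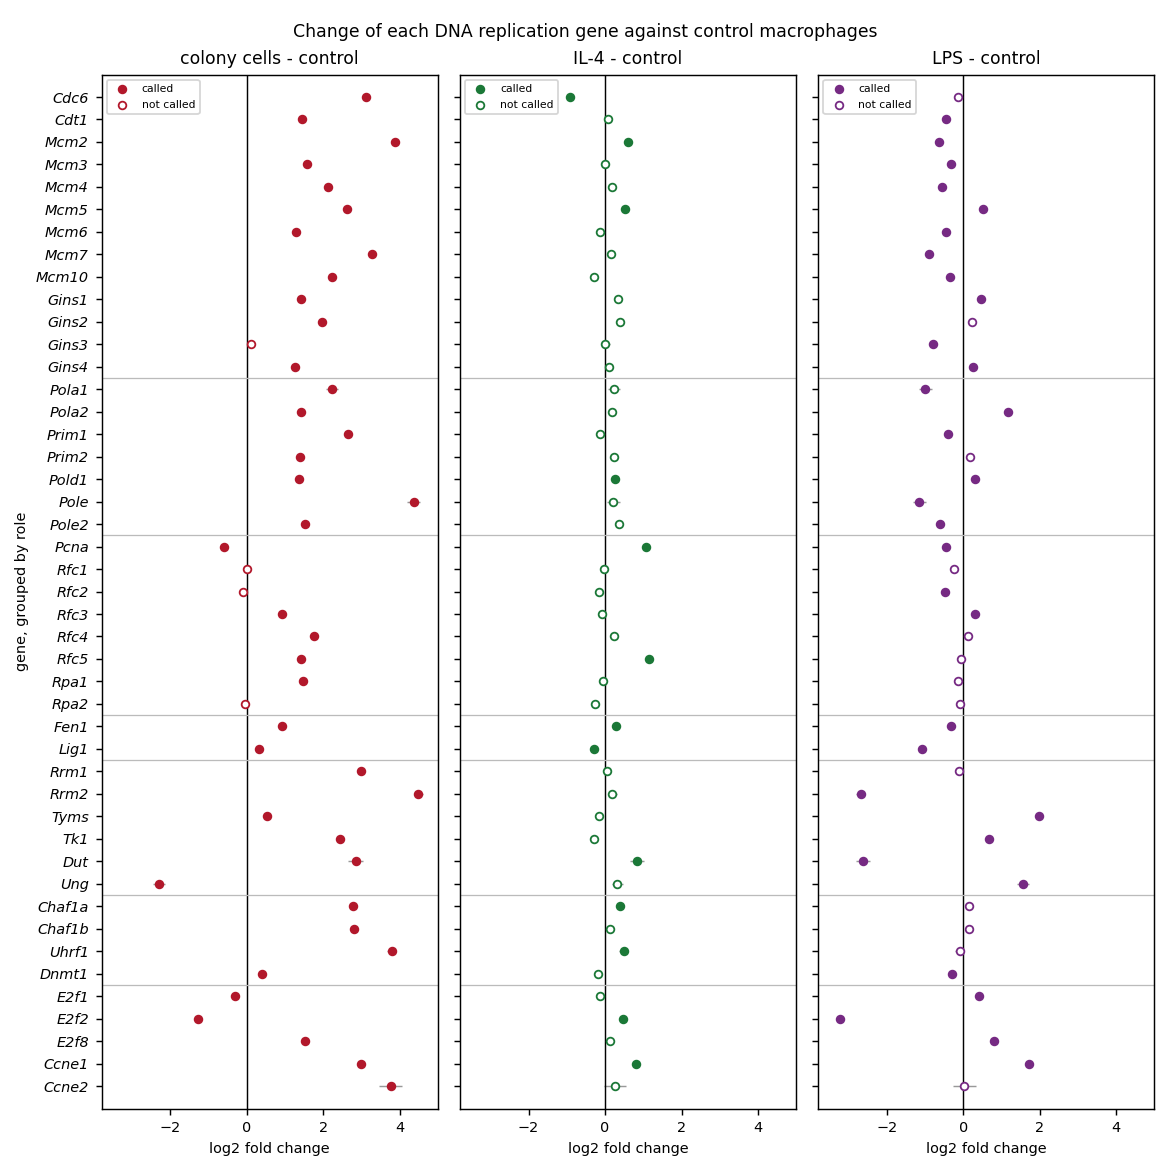
Log2 fold change (x axis) of each gene (y axis, grouped by role) in colony cells, IL-4 and LPS macrophages, each minus control, with bars for the standard error (2 arrays per group) and filled points for called genes. Of 45 genes, 37, 11 and 12 were called higher and 4, 2 and 20 lower in the 3 panels, and the point of Ccne2 in colony cells stands on control signals not well above background.

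Of 13 licensing and helicase genes, 12 rose in colony cells against control (92.3%, against 24.7% of all genes), with a median log2 fold change of 1.97. Gins3 had 0.11 ± 0.11 (adjusted p = 0.40), but 0.54 with quantile normalization, where it was called higher (adjusted p = 0.0019). In LPS macrophages 8 of the 13 fell (61.5%, against 25.5% of all genes) and 3 rose (23.1%, against 29% of all genes), and in IL-4 macrophages 2 rose and 1 fell (15.4% and 7.69%, against 9.88% and 8.96% of all genes). The shares that rose in LPS and fell in IL-4 were thus no higher than those of all genes. The Mcm2-7 ring, the motor of the replicative helicase, is the core of this group. Mcm2 had signals of 11.8 and 10.8 in colony cells, 1.19 and 1.13 in IL-4, 0.474 and 0.513 in LPS and 0.732 and 0.795 in control macrophages. No 2 groups overlapped, with colony cells highest and LPS lowest. Its log2 fold change was 3.89 ± 0.09 (standard error, adjusted p = 1.2e-06) for colony cells against control, 0.60 ± 0.09 (adjusted p = 0.0092) for IL-4 and -0.63 ± 0.09 (adjusted p = 0.0021) for LPS. The IL-4 call of Mcm2 was lost without IL-4 replicate 1 (0.56) and without IL-4 replicate 2 (0.64).

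Mcm7 had 25.8 and 26.1 in colony cells, 2.91 and 3.05 in IL-4, 1.45 and 1.43 in LPS and 2.91 and 2.49 in control macrophages. Colony cells stood 9.63-fold above control (adjusted p = 2.3e-06) and LPS macrophages below it at a log2 fold change of -0.91 ± 0.09 (adjusted p = 5.8e-04), while the IL-4 and control arrays overlapped. Mcm5 had 11.2 and 9.86 in colony cells, 2.46 and 2.45 in IL-4, 2.30 and 2.59 in LPS and 1.68 and 1.74 in control macrophages. It was the member of the ring that rose in LPS (0.52 ± 0.10, adjusted p = 0.0061), although not under median centring of the arrays (adjusted p = 0.084). Mcm5 rose in IL-4 by the same 0.52 (adjusted p = 0.018). That call was lost without any 1 of the control or IL-4 arrays, at log2 fold changes from 0.49 to 0.55. Mcm3, Mcm4 and Mcm6 rose in colony cells by 1.57, 2.12 and 1.29 on the log2 scale and fell in LPS by 0.32, 0.56 and 0.44. The fall of Mcm3 in LPS was lost without control replicate 1 (adjusted p = 0.064), without control replicate 2 (adjusted p = 0.073) and without LPS replicate 1 (adjusted p = 0.073).

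Cdc6, which loads the ring on origins together with Cdt1, had 0.842 and 0.844 in colony cells, 0.0545 and 0.0483 in IL-4, 0.0847 and 0.0921 in LPS and 0.104 and 0.0919 in control macrophages. It rose in colony cells (3.11 ± 0.10, adjusted p = 3.7e-06) and fell in IL-4 (-0.93 ± 0.10, adjusted p = 0.0033), and the LPS and control arrays overlapped. With normexp background correction the value in colony cells was 2.19, and with the mean of its probes Cdc6 fell in LPS (-0.46, adjusted p = 0.0085). Cdt1 had 36.3 and 36.9 in colony cells, 13.9 and 14.4 in IL-4, 9.49 and 10.3 in LPS and 13.4 and 13.3 in control macrophages. It was 2.74-fold higher in colony cells (adjusted p = 1.7e-05) and fell in LPS by 0.44 on the log2 scale (adjusted p = 0.0036).

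Mcm10, needed to start the helicase, rose in colony cells by 2.23 ± 0.09 (adjusted p = 7.7e-06). Of the 4 GINS subunits, which complete the moving helicase, Gins1, Gins2 and Gins4 rose in colony cells by 1.41, 1.97 and 1.26. Gins3 had 46.3 on both colony cell arrays, 41.2 and 45.2 in IL-4, 23.1 and 26.5 in LPS and 46.0 and 40.0 in control macrophages. The LPS arrays lay below all others for Gins3 (-0.79 ± 0.11, adjusted p = 0.0020), whereas Gins1 rose in LPS (0.47, adjusted p = 0.0086). Gins4 also rose in LPS (0.25, adjusted p = 0.039), but neither of these rises was called under median centring (adjusted p = 0.24 for Gins1 and 0.81 for Gins4).

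Promoter sequence was described beside these values because E2F factors are known to act through short words near the start of replication genes. RefSeq promoter windows (build GRCm38.p6, 250 bases before to 50 after the annotated start) were at hand for 37 of the 45 genes. The words searched on both strands were TTTCCCGC, TTTCGCGC, TTTGCCGC and TTTGGCGC, of which overlapping matches count separately, and CCAAT. An E2F word stood in 15 of the 37 genes (40.5%), against 704 of 27025 genes of the whole table, members included (2.6%), and CCAAT in 21 (56.8%), against 11096 of all (41.1%). There were 22 E2F words, 10 of them at or after the start, and 6 genes had at least 2. Of 30 genes called higher in colony cells than in control, 13 held a word, of 4 called lower 1 did (E2f2), and of 3 not called 1 did (Gins3). A match is a run of letters and not a measured binding site.

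The 250 bases before the start are printed for 4 licensing and helicase genes that rose in colony cells and for Gins3, which passed the test there with quantile normalization alone. E2F words of either strand are in capitals. Only windows that hold such a word are printed. The windows of Mcm2 and Mcm10, which also rose in colony cells, held none, and neither did another window of Mcm7. Mcm3 and Cdt1, which rose there too, held words only after the start, outside the bases printed. In Mcm5 and in Mcm6, 2 words on opposite strands overlap and form 1 run of capitals.
Mcm5, chr8:75109259-75109508, plus strand: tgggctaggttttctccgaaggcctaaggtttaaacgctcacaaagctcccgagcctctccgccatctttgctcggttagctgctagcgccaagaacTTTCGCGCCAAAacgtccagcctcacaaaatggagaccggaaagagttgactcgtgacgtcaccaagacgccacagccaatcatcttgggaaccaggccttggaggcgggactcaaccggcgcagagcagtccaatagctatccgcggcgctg
Mcm6, chr1:128359706-128359955, minus strand: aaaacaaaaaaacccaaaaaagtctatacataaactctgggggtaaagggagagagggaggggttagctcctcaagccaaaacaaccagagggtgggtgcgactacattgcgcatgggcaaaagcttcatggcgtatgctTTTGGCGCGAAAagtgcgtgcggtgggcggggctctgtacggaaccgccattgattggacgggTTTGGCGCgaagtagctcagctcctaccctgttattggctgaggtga
Mcm7, chr5:138171884-138172133, minus strand: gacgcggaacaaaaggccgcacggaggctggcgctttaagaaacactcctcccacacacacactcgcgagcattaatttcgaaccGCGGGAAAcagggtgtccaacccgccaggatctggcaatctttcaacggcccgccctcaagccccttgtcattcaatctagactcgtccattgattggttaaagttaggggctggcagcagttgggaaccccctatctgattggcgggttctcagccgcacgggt
Cdc6, chr11:98907901-98908150, plus strand: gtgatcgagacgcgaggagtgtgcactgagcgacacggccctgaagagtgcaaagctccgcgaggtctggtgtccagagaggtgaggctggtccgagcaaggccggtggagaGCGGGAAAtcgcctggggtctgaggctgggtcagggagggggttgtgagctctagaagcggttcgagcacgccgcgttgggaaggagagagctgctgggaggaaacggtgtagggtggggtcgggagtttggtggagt
Gins3, chr8:95633309-95633558, plus strand: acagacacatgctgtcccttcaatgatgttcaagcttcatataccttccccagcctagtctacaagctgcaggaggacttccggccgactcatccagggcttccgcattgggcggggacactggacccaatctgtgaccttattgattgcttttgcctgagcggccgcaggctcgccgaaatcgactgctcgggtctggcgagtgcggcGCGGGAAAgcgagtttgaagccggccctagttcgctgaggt
Mcm6 holds a further word nearer to the start, and Mcm7 a further word after it. The word in Gins3 and those in Mcm7 and Cdc6 printed here have the same letters, read on the strand opposite to the gene.

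**Figure D3:**
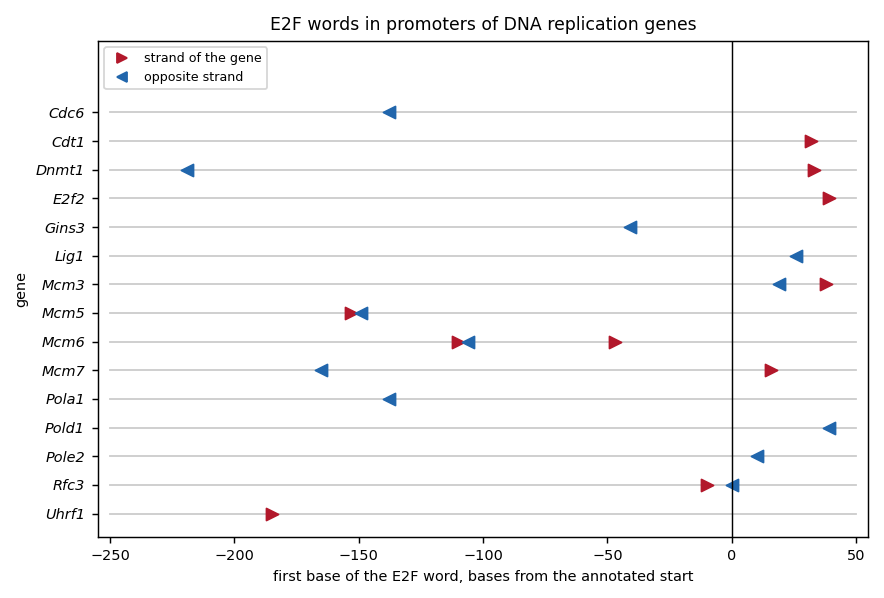
Position of each E2F word (triangles, coloured by strand) in the promoter windows of the 15 DNA replication genes that hold one, in bases from the annotated start (x axis, vertical line at the start). The first bases of the 22 words lie from -219 to 39 relative to the start, with 10 at or after it.

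All 7 polymerase and primase genes rose in colony cells against control (24.7% of all genes did), by 1.36 to 4.37 on the log2 scale. In LPS 4 fell (57.1%, against 25.5% of all genes) and 2 rose (28.6%, close to the 29% of all genes). Pole, the catalytic subunit of the leading strand polymerase epsilon, had 6.84 and 6.94 in colony cells, 0.395 and 0.379 in IL-4, 0.133 and 0.170 in LPS and 0.290 and 0.384 in control macrophages. Its log2 fold change in colony cells was 4.37 ± 0.17 (adjusted p = 7.7e-06) against control and 5.52 ± 0.17 (adjusted p = 2.6e-06) against LPS. Pole fell in LPS against control (-1.15 ± 0.17, adjusted p = 0.0027), but with the mean of its probes the values against control were 3.41 for colony cells and -0.42 for LPS (adjusted p = 0.11). Colony cells against LPS gave 3.82 with the mean of probes and 4.88 with normexp background correction. Pole2, the accessory subunit, rose in colony cells (1.51 ± 0.10) and fell in LPS (-0.60 ± 0.10, adjusted p = 0.0035).

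Polymerase alpha and primase lay down the primer, and in LPS Pola2 rose, Pola1 and Prim1 fell and Prim2 was not called. Pola1, the catalytic subunit, fell there by 0.99 ± 0.16 on the log2 scale (adjusted p = 0.0036). Pola2, its regulatory partner, had 0.577 and 0.545 in colony cells, 0.225 and 0.249 in IL-4, 0.498 and 0.443 in LPS and 0.194 and 0.225 in control macrophages. Pola2 thus rose in LPS (1.17 ± 0.11, adjusted p = 4.6e-04) and in colony cells (1.42 ± 0.11, adjusted p = 1.1e-04), and colony cells against LPS gave 0.26 ± 0.11 (adjusted p = 0.083). Prim2, the large primase subunit, rose in colony cells by 1.40 ± 0.07 (adjusted p = 1.6e-05) and had 0.17 ± 0.07 in LPS (adjusted p = 0.078). Prim1, the catalytic primase subunit, rose by 2.66 ± 0.10 in colony cells and fell by 0.40 ± 0.10 in LPS (adjusted p = 0.020), a fall that was lost without control replicate 1 (adjusted p = 0.053) and without LPS replicate 1 (adjusted p = 0.069). Pold1, the catalytic subunit of the lagging strand polymerase delta, had 8.07 and 8.04 in colony cells, 3.84 and 3.68 in IL-4, 3.93 and 3.84 in LPS and 3.17 and 3.12 in control macrophages. Control was lowest, with all other arrays above it, and colony cells were 2.56-fold higher than control. The rises of Pold1 in LPS (0.30, adjusted p = 0.0095) and IL-4 (0.26, adjusted p = 0.044) were not called under median centring (adjusted p = 0.58 in LPS and 0.32 in IL-4).

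The clamp, clamp loader and single-strand binding genes were the role group with the smallest share called higher in colony cells against control. Of these genes 4 of 8 rose and 1 fell, where 24.7% of all genes were called higher and 46.6% lower. The share that rose was thus still above that of all genes. The 4 include Rfc5, whose probes disagreed, as given below. Pcna, the ring that holds the polymerases on DNA, had 42.3 and 45.7 in colony cells, 138 and 142 in IL-4, 46.9 and 51.1 in LPS and 68.1 and 65.6 in control macrophages. IL-4 macrophages were highest, and colony cells and LPS macrophages both lay below control. Pcna rose in IL-4 by 1.07 ± 0.08 (adjusted p = 9.7e-04), and fell in LPS by 0.45 ± 0.08 (adjusted p = 0.0050) and in colony cells by 0.61 ± 0.08 (adjusted p = 9.6e-04). It was measured by 1 probe, at chr2:132075022-132075054 on mm9. Colony cells against LPS gave -0.16 ± 0.08 (adjusted p = 0.12), and 0.54 with quantile normalization (adjusted p = 7.1e-04).

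Replication factor C opens the clamp and closes it around DNA, with Rfc1 as its large subunit and Rfc2 to Rfc5 as small ones. Rfc5 had 8.87 and 9.23 in colony cells, 7.39 and 7.57 in IL-4, 3.23 and 3.28 in LPS and 3.50 and 3.26 in control macrophages. It was high in colony cells and IL-4 macrophages (1.42 ± 0.07, adjusted p = 1.7e-05, and 1.15 ± 0.07, adjusted p = 4.8e-04, against control), with LPS and control arrays overlapping. A dimmer Rfc5 probe, at chr5:117836290-117836349 against chr5:117829243-117829302 on mm9, ran the other way, at -2.36 in colony cells and -0.44 in IL-4, so the direction for this gene holds for 1 probe only. With the mean of the 2 probes, Rfc5 against control was at -0.47 in colony cells and 0.35 in IL-4.

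Rfc4 had 5.67 and 6.03 in colony cells, 2.04 and 2.03 in IL-4, 1.84 and 1.91 in LPS and 1.77 and 1.68 in control macrophages, and rose in colony cells (1.76 ± 0.07, adjusted p = 8.0e-06), with 0.24 in IL-4 (adjusted p = 0.073) and 0.12 in LPS (adjusted p = 0.20). Rfc3 rose in colony cells by 0.92 ± 0.07 (adjusted p = 8.4e-05). Rfc2 had 6.64 and 6.33 in colony cells, 6.36 and 6.24 in IL-4, 5.25 and 4.88 in LPS and 6.87 and 7.11 in control macrophages. It fell in LPS (-0.47 ± 0.07, adjusted p = 0.0030), and its colony cell value was -0.11 (adjusted p = 0.23), or 0.24 with quantile normalization (adjusted p = 0.044). Rfc1 was not called in any of the 6 comparisons, with -0.00 ± 0.09 in colony cells against control, and 0.35 with quantile normalization (adjusted p = 0.0058). The RPA complex, of which Rpa1 and Rpa2 are subunits, coats single-stranded DNA. Rpa1 rose in colony cells by 1.47 ± 0.06 (adjusted p = 1.1e-05), while Rpa2 had -0.04 ± 0.08 (adjusted p = 0.68) and was not called in any of the 6 comparisons.

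Both Okazaki fragment genes rose in colony cells and fell in LPS, where 24.7% of all genes rose in colony cells and 25.5% fell in LPS. Fen1, the flap nuclease that removes primers, had 16.0 and 16.4 in colony cells, 10.1 and 10.9 in IL-4, 6.64 and 7.00 in LPS and 8.59 and 8.61 in control macrophages, with no overlap between groups. It rose by 0.91 ± 0.07 in colony cells (adjusted p = 1.2e-04) and fell by 0.33 ± 0.07 in LPS (adjusted p = 0.011), and its rise in IL-4 (0.28, adjusted p = 0.049) was lost under most alternatives, the replicate block among them (adjusted p = 0.075). Lig1, the ligase that seals the nicks, had 18.4 and 18.3 in colony cells, 11.9 and 12.5 in IL-4, 7.05 and 7.06 in LPS and 15.4 and 14.3 in control macrophages. LPS macrophages were lowest (-1.07 ± 0.07, adjusted p = 1.0e-04), and the rise in colony cells (0.31 ± 0.07, adjusted p = 0.0095) was not called under median centring (adjusted p = 0.34).

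Of 6 genes for nucleotide supply and uracil removal, 5 rose in colony cells against control and Ung fell (all genes, 24.7% higher and 46.6% lower). In LPS macrophages against control 3 were higher and 2 lower (all genes, 29% and 25.5%). Whether these 6 genes differ from all genes in LPS was not tested. Ribonucleotide reductase makes the deoxynucleotides. Its regulated small subunit Rrm2 had 15.2 and 15.6 in colony cells, 0.750 and 0.810 in IL-4, 0.119 and 0.0957 in LPS and 0.679 and 0.688 in control macrophages. Rrm2 was 22.5-fold higher in colony cells than in control (4.49 ± 0.12, adjusted p = 1.7e-06), and in LPS it fell to a signal 6.41-fold below control (-2.68 ± 0.12, adjusted p = 2.4e-05). Colony cells stood 144-fold above LPS macrophages (7.17 ± 0.12 on the log2 scale, and less with normexp background correction), the largest difference of the 45 genes in any of the 6 comparisons. The fall in LPS was -2.08 with normexp background correction. Rrm1, the large subunit, rose in colony cells by 2.99 ± 0.07 (adjusted p = 1.4e-06) and had -0.12 ± 0.07 in LPS (adjusted p = 0.23).

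Dut removes dUTP, which polymerases would otherwise build into DNA, and Ung cuts uracil out of DNA. Dut had 3.40 and 3.86 in colony cells, 0.854 and 0.931 in IL-4, 0.0947 and 0.0706 in LPS and 0.570 and 0.442 in control macrophages. It rose in colony cells (2.85 ± 0.19, adjusted p = 5.6e-05) and fell in LPS (-2.62 ± 0.19, adjusted p = 1.5e-04), and the fall was -1.88 with normexp background correction. Ung ran the other way, with 36.2 and 36.7 in colony cells, 207 and 241 in IL-4, 460 and 611 in LPS and 177 and 181 in control macrophages. It was 4.92-fold lower in colony cells than in control (-2.30 ± 0.15, adjusted p = 5.3e-05) and 2.96-fold higher in LPS (1.56 ± 0.15, adjusted p = 4.6e-04). Ung had 1 probe, at chr5:114588731-114588790 on mm9, and none of its spots was saturated.

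Tyms and Tk1 make thymidylate, by synthesis and by salvage. Tyms had 0.460 and 0.453 in colony cells, 0.273 and 0.303 in IL-4, 1.28 and 1.25 in LPS and 0.338 and 0.301 in control macrophages. It was highest in LPS macrophages (1.98 ± 0.09, adjusted p = 2.8e-05), and its rise in colony cells (0.52 ± 0.09, adjusted p = 0.0033) was not called under median centring (adjusted p = 0.071). Tk1 had 5.43 and 5.26 in colony cells, 0.804 and 0.834 in IL-4, 1.65 and 1.48 in LPS and 1.06 and 0.935 in control macrophages. It rose in colony cells by 2.43 ± 0.09 (adjusted p = 6.9e-06), or 1.51 with the mean of its 3 probes, and in LPS by 0.66 ± 0.09 (adjusted p = 0.0022), which median centring did not call (adjusted p = 0.073). In LPS macrophages, then, Tyms, Tk1 and Ung were higher than in control while Rrm2 and Dut were lower.

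**Figure D4:**
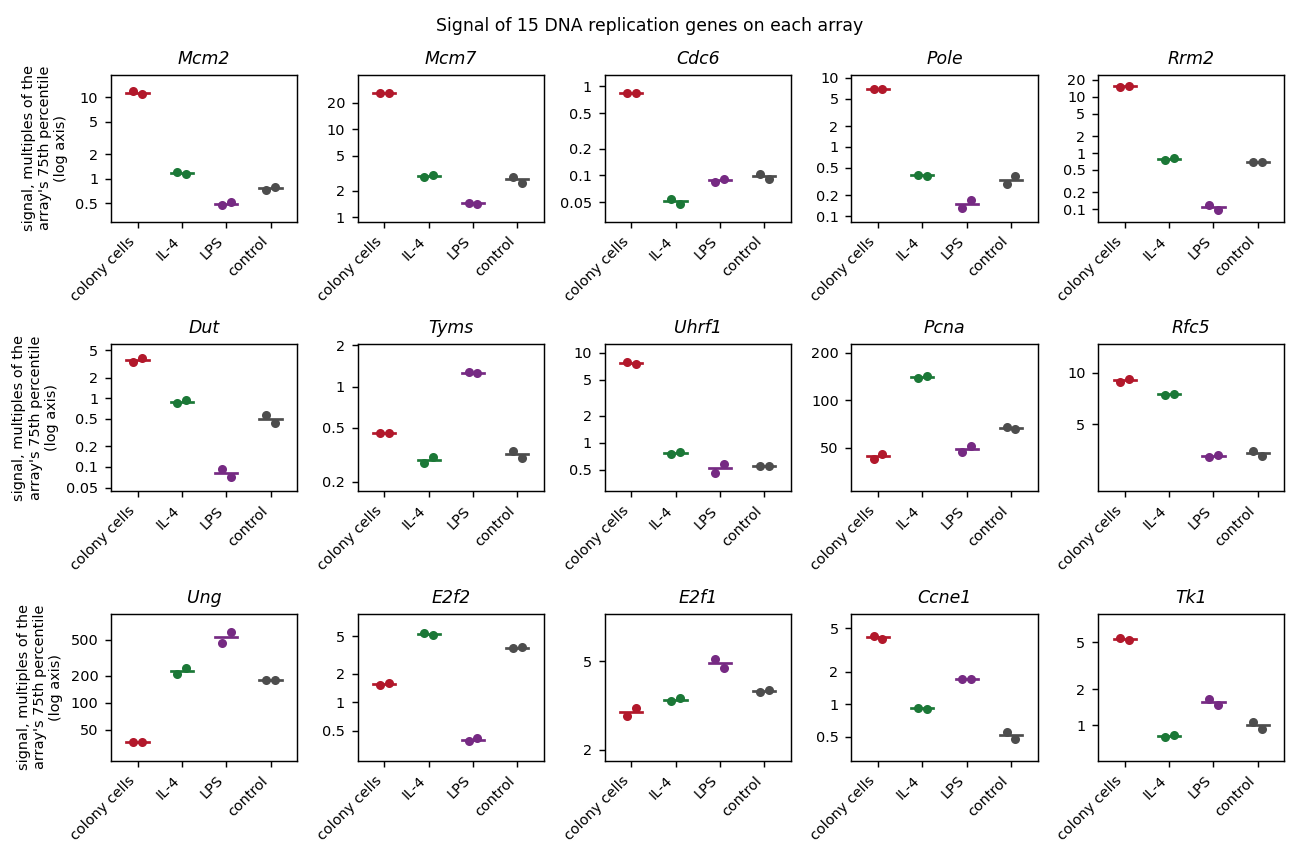
Signal of 15 DNA replication genes on each array (y axis, multiples of the array's 75th percentile, log axis) by group (x axis), with points for the 2 arrays and a line at their mean. Colony cells were highest for 10 of the 15, LPS macrophages for Tyms, Ung and E2f1, and IL-4 macrophages for Pcna and E2f2.

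All 4 chromatin genes rose in colony cells against control, where 24.7% of all genes did. Uhrf1, which recognises hemimethylated DNA and brings the maintenance methyltransferase Dnmt1 to it, had 7.82 and 7.46 in colony cells, 0.744 and 0.802 in IL-4, 0.464 and 0.579 in LPS and 0.553 and 0.549 in control macrophages. Colony cells were 13.9-fold above control (3.79 ± 0.12, adjusted p = 3.2e-06) and the LPS and control arrays overlapped. Dnmt1 had 2.11 and 2.02 in colony cells, 1.34 and 1.40 in IL-4, 1.35 and 1.18 in LPS and 1.48 and 1.62 in control macrophages. Its rise in colony cells (0.41 ± 0.09, adjusted p = 0.0095) was lost without colony cell replicate 1 (adjusted p = 0.054) and under median centring (adjusted p = 0.24). Its fall in LPS (-0.30, adjusted p = 0.040) was lost on leaving out any 1 array other than LPS replicate 1, with adjusted p-values between 0.055 and 0.15. Chaf1a and Chaf1b, the larger subunits of the histone chaperone CAF-1, rose in colony cells by 2.79 ± 0.10 and 2.80 ± 0.07, and Chaf1b by 1.82 with the mean of its 3 probes.

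The S phase regulators did not move together. Ccne1, the cyclin E1 that drives Cdk2 at the start of S phase, had 4.27 and 3.97 in colony cells, 0.931 and 0.897 in IL-4, 1.69 and 1.72 in LPS and 0.557 and 0.482 in control macrophages. It rose in all 3 groups against control, by 2.99 ± 0.09 (adjusted p = 3.2e-06) in colony cells, 0.82 ± 0.09 (adjusted p = 0.0038) in IL-4 and 1.71 ± 0.09 (adjusted p = 5.2e-05) in LPS. Ccne2 (cyclin E2) had 0.0401 and 0.0436 in colony cells and was not well above background on any macrophage array. With the main processing Ccne2 was therefore at least 2.85-fold higher in colony cells than in IL-4 macrophages, 2.94-fold than in LPS and 2.73-fold than in control. These bounds did not hold with normexp background correction. That setting left log2 fold changes of 0.13 against control (adjusted p = 0.40), 0.30 against IL-4 (adjusted p = 0.088) and 0.57 against LPS (adjusted p = 0.0075).

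E2f2, an activating E2F, had 1.54 and 1.60 in colony cells, 5.39 and 5.19 in IL-4, 0.387 and 0.419 in LPS and 3.71 and 3.85 in control macrophages. IL-4 macrophages were highest, and LPS macrophages lay 9.38-fold below control (-3.23 ± 0.07, adjusted p = 3.6e-06), the largest change of the 45 genes in that comparison. E2f2 was also lower in colony cells than in control (-1.27 ± 0.07, adjusted p = 3.4e-05). E2f1, also an activating E2F, had 2.85 and 3.07 in colony cells, 3.30 and 3.43 in IL-4, 5.14 and 4.69 in LPS and 3.64 and 3.70 in control macrophages. It was highest in LPS (0.42 ± 0.08, adjusted p = 0.0066), which median centring did not call (adjusted p = 0.32). Its fall in colony cells (-0.31 ± 0.08, adjusted p = 0.015) was lost without control replicate 2 (adjusted p = 0.055), without colony cell replicate 1 (adjusted p = 0.087), with quantile normalization (adjusted p = 0.25) and in the deposited value table (adjusted p = 0.074). E2f8, a repressive E2F, rose in colony cells by 1.52 ± 0.10 (adjusted p = 6.0e-05) and in LPS by 0.80 ± 0.10 (adjusted p = 0.0014).

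In IL-4 macrophages against control, 11 of 45 genes were called higher and 2 lower, where 9.88% of all genes were called higher and 8.96% lower. The members' median log2 fold change was 0.18. Pcna, Rfc5 and Ccne1 rose and Cdc6 fell under every alternative that gave a value, and the other 9 calls did not hold throughout. No alternative used the dimmer Rfc5 probe alone, which gave -0.44 (adjusted p = 0.025, limma on single probes), so the rise of Rfc5 holds for its brighter probe only. Leaving out IL-4 replicate 1 or IL-4 replicate 2 left 3 genes called higher, and leaving out control replicate 2 left 5. Without control replicate 1 there were 7, and without either colony cell array 6. Among the 9 was Dut (0.83 ± 0.19, adjusted p = 0.035), for which the adjusted p was 0.12 without IL-4 replicate 1 and 0.17 without IL-4 replicate 2. Uhrf1 (0.49 ± 0.12, adjusted p = 0.042) gave 0.00 with the mean of its probes.

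LPS macrophages had 20 genes called lower and 12 higher against control, where 25.5% of all genes were called lower and 29% higher. As shares of the members these were 44.4% lower and 26.7% higher, so that the share called higher was close to that of all genes. The members' median was -0.13 and that of all genes 0.08. Rrm2, Dut and E2f2 fell most, and Tyms, Ccne1, Ung and Pola2 rose by at least 2-fold. Median centring shifted all genes in this comparison by -0.19 on the log2 scale, and then called 5 members higher and 20 lower. Of all genes it called 4843 higher and 7493 lower. Other shifts over 0.1 under median centring were -0.15 and -0.17 in colony cells against control and IL-4 and 0.22 in IL-4 against LPS. Of all genes called in LPS against control, 53.2% were higher with the 75th percentile, 39.3% with median centring, 38.5% in the deposited value table and 43.1% with normexp background correction. Ccne1, E2f8, Pola2, Tyms and Ung rose under all 18 alternatives.

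IL-4 against LPS macrophages gave 19 members called higher and 9 lower, where 25.6% of all genes were called higher and 26.8% lower. Of all genes called there, 48.9% were higher, 64.2% with median centring and 66.1% in the deposited value table. E2f2 was 13.1-fold higher in IL-4 than in LPS (3.71 ± 0.07, adjusted p = 1.8e-06), Dut 10.9-fold (3.45 ± 0.19) and Rrm2 7.31-fold (2.87 ± 0.12). With normexp background correction Dut was at 2.58 and Rrm2 at 2.22. Tyms was 4.39-fold lower in IL-4 than in LPS (-2.13 ± 0.09, adjusted p = 2.1e-05). IL-4 and LPS were each compared with the same control arrays. Side by side, the log2 fold changes of Pcna were 1.07 in IL-4 and -0.45 in LPS, and those of Ccne1 0.82 and 1.71.

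The most frequent order of the 4 group means was colony cells, IL-4, control, LPS, in 15 of the 45 genes. LPS macrophages had the lowest mean in 24 and control in 13. Shares over all genes are not given for these orders. Neighbours in that order did not always differ: in Mcm7, Rrm2 and Cdt1 the IL-4 and control means were not called apart, while in Mcm2, Dut and Fen1 all neighbours were. The median difference between the 2 arrays of a group was 0.06 on the log2 scale in colony cells and IL-4 and 0.11 in LPS and control, and the widest was 0.89, for Ccne2 in IL-4, where it was not above background.

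Of 40 replication genes outside the list, 27 were called higher and 7 lower in colony cells against control (67.5% and 17.5%, against 24.7% and 46.6% of all genes), with a median of 1.01. Mtbp, which works with Ticrr in origin firing, rose there by 3.08 ± 0.07 (adjusted p = 1.3e-06), and Dscc1, of an alternative clamp loader, by 3.31 ± 0.20 (adjusted p = 3.9e-05). Orc1, the largest subunit of the origin recognition complex, was not well above background in control and at least 15.6-fold higher in colony cells. In LPS 12 of the 40 rose and 9 fell, shares of 30.0% and 22.5% that lie near the 29% and 25.5% of all genes. Among them was Timeless, a fork protection factor, at 2.73 ± 0.08, with Dscc1, Ticrr and Gmnn (geminin, the inhibitor of Cdt1) at -1.98, -1.91 and -1.29. In IL-4 4 rose and 4 fell, each 10% and so near the 9.88% and 8.96% of all genes. The largest changes there were in Dna2, a nuclease of primer removal (1.31 ± 0.17, adjusted p = 0.0061), Mtbp (0.77), Rnaseh2a (0.51) and Tonsl (-0.51).

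Of 20 mitosis genes, 18 rose and 1 fell in colony cells against control (90.0% and 5.0%, against 24.7% and 46.6% of all genes). In LPS 13 fell and 4 rose (65.0% and 20.0%, against 25.5% and 29% of all genes). Ccna2, Ccnb1 and Ccnb2, the cyclins of S phase and mitosis, rose in colony cells by 3.83, 3.46 and 3.85, and the gene that fell was Cenpa (-1.58 ± 0.12, named after its value was seen). In LPS Cenpa, which encodes the centromeric histone H3, was at -4.71 ± 0.12 and Ccna2 at -2.61 ± 0.17. In IL-4, 1 rose (Tpx2, 0.53) and 1 fell (Ube2c, -0.66), each 5.0% and below the shares of all genes. Of 24 further genes of nucleotide metabolism, 16 rose and 6 fell in colony cells (66.7% and 25%, against 24.7% and 46.6% of all genes), led by Ctps, the CTP synthase, at 5.60 ± 0.07, and Dctd, the dCMP deaminase, at 4.83 ± 0.27. In LPS 9 of them rose and 2 fell (37.5% and 8.33%, against 29% and 25.5% of all genes), led by Cmpk2, a mitochondrial nucleotide kinase, at 3.75 ± 0.09, which was at -4.23 ± 0.09 in colony cells. In IL-4 7 rose and 3 fell (29.2% and 12.5%, against 9.88% and 8.96% of all genes).

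Of 27 regulators of G1 and of the E2F and RB families, 16 rose and 6 fell in colony cells (59.3% and 22.2%, against 24.7% and 46.6% of all genes). In IL-4 6 rose and 4 fell (22.2% and 14.8%, against 9.88% and 8.96%), and in LPS 11 rose and 9 fell (40.7% and 33.3%, against 29% and 25.5%). Inhibitors and activators of the cycle were both among those called. In colony cells Cdkn2a and Cdkn2b, which encode INK4 inhibitors of cyclin D kinases, rose by 8.78 ± 0.32 and 5.31 ± 0.09, Ccnd2 (cyclin D2) by 5.90 ± 0.08, and Cdkn1c (p57) was at -5.73 ± 0.16. In LPS Ccnd2 rose by 4.25 ± 0.08, and Cdkn1c was at -3.68 ± 0.16. In IL-4 Myc rose by 2.56 ± 0.12, and Cdkn1c was at -1.23 ± 0.16. These are log2 fold changes against control, all with an adjusted p under the threshold.

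**Figure D5:**
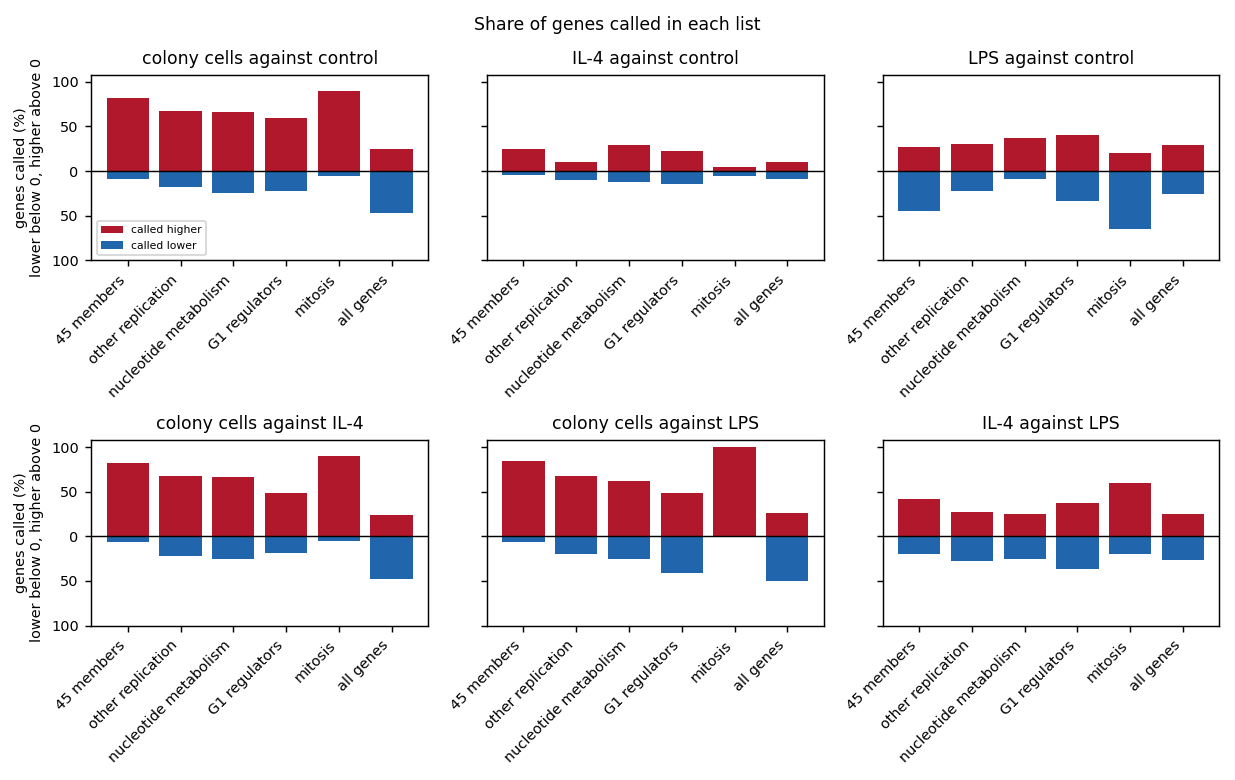
Share of genes called higher (above 0) and lower (below 0), in percent (y axis), in the 45 DNA replication genes, the 4 other lists and all genes (x axis), in 6 comparisons (panels). In colony cells against control 37 of 45 DNA replication genes and 18 of 20 mitosis genes were called higher, against 24.7% of all genes.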

How the data were processed

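RNA of 8 samples in 4 groups of 2 was measured on 1 array each. The intensity of each spot comes from Agilent Feature Extraction 10.7.3.1, per the file headers, which subtracted background and detrended each array but did not scale arrays to each other. Probe positions are on mm9, per the file headers. The deposited log2 value table tracked the scanner's log2 intensities (Pearson r above 0.999 per array, column medians 2.53 to 2.96), and its centring stays unknown. Partek 6.4 and RMA are named without a role, per the submitters' processing notes.

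Control spots, and spots marked as outliers by the scanner software, were left out, and spots of a probe averaged. Log2 signals were set relative to each array's 75th percentile, and a probe was kept where some group had it well above background on both its arrays (39417 of 55681). The brightest probe stood for a gene. Gene names came from the RefSeq table by accession for 26762 probes, by symbol for 3819 and by synonym for 639, and 24461 kept the file's name. The 4 group means were fitted with limma 3.58.1 in R 4.3.3 (eBayes, residual degrees of freedom 4, prior 1.59) and p-values adjusted by Benjamini-Hochberg over 26508 genes, 39 of them with a missing value. The value after ± is the standard error of a log2 fold change, and 2 arrays per group limit the precision. The fit was tested on simulated data. A gene with no probe well above background on either array of a group has only a bound there.

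The members and lists were chosen with earlier results of these data known. Per-array values are given for the called member with the largest change in each role group in each comparison with control and for Pcna, Mcm2, Mcm5, Cdc6, Cdt1, Rrm2, Tyms, E2f1, Ccne1 and Uhrf1. From other lists up to 4 called genes with the largest change are named. The other per-array values were added after they were seen. Replicate numbers were not shown to pair samples, since deviations of same-numbered arrays correlated at -0.16 to 0.05.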

Additional observations from a re-analysis of the deposited data

How the results depend on the processing

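Of 4848 values of single members under 18 alternatives, 4606 kept their call or lack of one, 175 lost the call and 59 gained it. A further 8 reversed, which means a change of sign with a call in the main fit or the alternative. The 4606 include 61 that changed sign with no call in either fit. IL-4 against control depended most on the processing. Its 11 members called higher became 7 with quantile normalization, 6 with median centring, 7 in the deposited value table, 6 without a filter on dim probes, 6 with the replicate block and 7 with only the 4 arrays compared, and 3 to 9 on leaving out 1 array, but 12 with normexp, 14 over probes well above background on all 8 arrays and 16 with an intensity trend. Its 2 called lower became 1 with median centring, the deposited table, no filter, the mean of probes, the replicate block or only 4 arrays, 1 on leaving out any array, and 4 with an intensity trend. All genes called there, 4993, became 2601, 2566 and 3239 with median centring, the deposited table and only 4 arrays, and 1941 to 5253 on leaving out 1 array. In LPS against control the 12 members called higher became 5 with median centring and 5 in the deposited table. Of all genes, 7685 were called higher there in the main fit, 4843 with median centring and 4508 in the deposited table. Reversed values were Rfc1 (0.35) and Rfc2 (0.24) in colony cells against control and Pcna (0.54) in colony cells against LPS with quantile normalization, and Ccne2 (-0.43) in LPS against control with normexp. With the mean of probes, Rfc5 reversed to -0.47, -0.83 and -0.15 in colony cells against control, IL-4 and LPS, and Uhrf1 to -0.51 in IL-4 against LPS. Beyond the averaging of probes that disagree, the cause was not tested. The replicate block left 37 members higher and 4 lower in colony cells against control and 11 and 19 in LPS against control. Of all genes it called 6421 higher and 12051 lower in colony cells against control, and 7287 and 6380 in LPS against control. A slide block could not be fitted, since there was 1 slide. Signal over background limits Ccne2, which was dim on every macrophage array.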
